A study of Mus musculus with 48 samples.

Results

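Progenitor cultures of 24 mouse ER-Hoxb8 clones were compared as 2 sets: clones 1 to 13 (n = 13) and clones 15 to 24 with clone 26 (n = 11). These are 24 of the 48 libraries of the series, and the other 24 come from monocytic cultures of the same clones. The sets were chosen on the measured values themselves, in principal components of the libraries. No label names a batch, a date or another difference between them, and clones 14 and 25 are not analysed here. All 24 libraries carry 1 description: clonal cells of mouse bone marrow that bear ER-Hoxb8, labelled as granulocyte-monocyte progenitors, grown in RPMI medium with serum, antibiotics and stem cell factor (SCF). Their titles add the word Plus, which no label explains, and the labels are silent on the mouse strain, sex and age, the vector or promoter of the fusion gene, and the dates of culture, extraction and sequencing. Each clone is 1 line and gave 1 progenitor library, so the spread within a set mixes differences between clones with technical variation.

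In ER-Hoxb8 cells, the homeobox factor Hoxb8 is fused to the hormone-binding domain of the estrogen receptor. While hormone is present the fusion enters the nucleus and blocks maturation, and the cells divide as granulocyte-monocyte progenitors, the bone marrow stage that gives rise to neutrophils and monocytes. Once hormone is withdrawn they mature. SCF acts through the receptor Kit, and Mpo, Elane, Prtn3 and Ctsg encode the granule enzymes that this stage begins to make.

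Values are in TPM, a share of a library's transcripts that Salmon estimates, which corrects for transcript length and is relative to the library total. Differences, with their standard errors (±), are on the scale log2(TPM + 1), as clones 15 to 26 minus clones 1 to 13, so a positive value is higher in clones 15 to 26. The change of genes at a few TPM is understated on that scale. A gene is called higher or lower where limma, fitted over all genes, gave an adjusted p under 0.05. Since the sets were drawn from these same values, a call serves as a label and no p-value is given. Levels in 3 numbers are the lowest, the median and the highest library of a set.

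The cells carried the markers of their label. All 24 libraries held Kit, Cd34 and Mpo above 1 TPM, and the summed level of 9 granulocyte-monocyte progenitor markers was 2476 to 5223 TPM in clones 1 to 13 and 2040.4 to 9430 TPM in clones 15 to 26. They also held much Cpa3, the carboxypeptidase of mast cells and their progenitors, at 464, 1393 and 2377 TPM in clones 1 to 13 and 262, 1041 and 1754 TPM in clones 15 to 26. Of 4 stromal markers the summed level stayed at or under 7.57 TPM. The 4 Y-linked genes Ddx3y, Eif2s3y, Kdm5d and Uty were at most at 0.353 TPM. Libraries of clones 1 to 13 held 9162 to 10394 genes at 1 TPM or more, and those of clones 15 to 26 held 8240.0 to 11030.0.

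Libraries of clones 21 and 24 stood apart from their own set. The library of clone 21 listed 23247 genes at 0, where the other 10 of its set listed 14856 to 20098, and its median correlation with its own set was 0.762. The library labelled clone 24 had a median correlation of 0.892 with its own set and of 0.935 with clones 1 to 13. Over all 24 libraries, the first and second components took 40.8% and 22.1% of the variance, and clones 21 and 24 lay at their ends. Without both, the first component took 50.7% and parted the sets, from -76.5 to -3.80 in clones 1 to 13 and from 22.5 to 64.9 in clones 15 to 26. Set membership took 24.1% of the summed squares over all 24 libraries and 43.4% over the other 22. The median within-set SD of a gene was 0.330 log2 units in clones 1 to 13, 0.658 in clones 15 to 26 and 0.305 in clones 15 to 26 without 21 and 24. Differences of single genes are therefore given over all clones with the standard error and, after a slash, without clones 21 and 24.

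**Figure D1:**
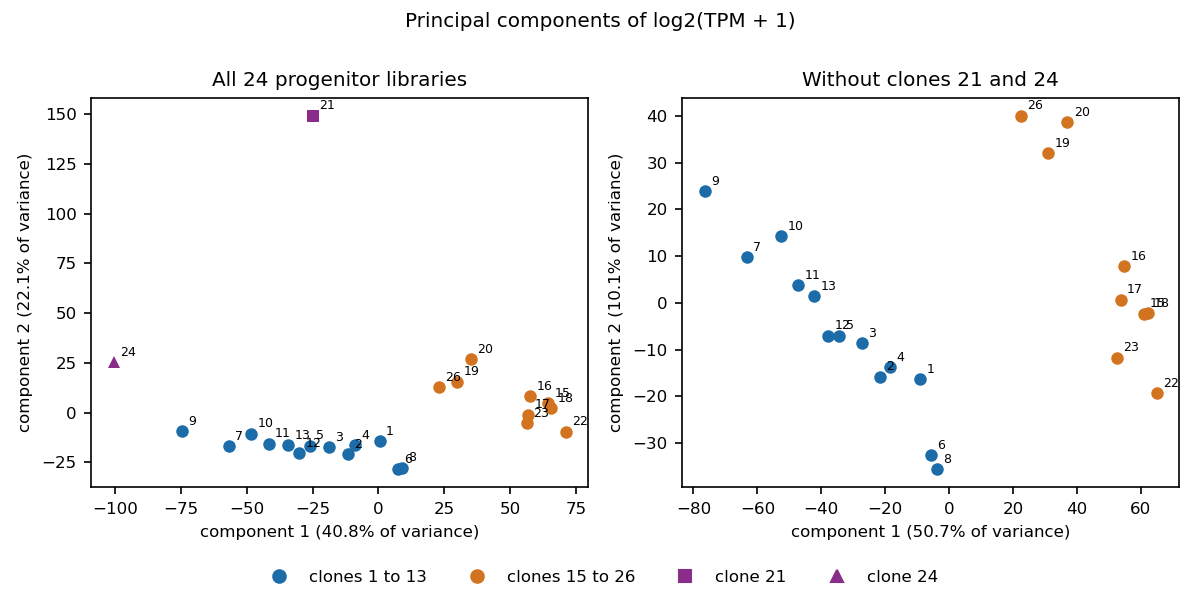
Principal components of log2(TPM + 1) for all 24 progenitor libraries (left) and for 22 of them (right), 1 point per library with its clone number. Clone 24 lies at the low end of component 1 and clone 21 at the high end of component 2 on the left. On the right, clones 1 to 13 end at -3.80 on component 1 and clones 15 to 26 begin at 22.5.

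Over all clones, limma called 3011 of 10720 genes higher in clones 15 to 26 (28.1% of genes tested) and 1223 lower (11.4%). Without clones 21 and 24 it called 5706 higher (53.2%) and 1326 lower (12.4%). Clone 24 weighed most in this, since leaving it out alone gave 4756 higher calls. Called in the same direction in both fits were 3008 higher and 1148 lower genes, and none was called in opposite directions. Differences of at least 2-fold numbered 1061 higher and 233 lower over all clones, and 1842 and 183 without the 2. The whole distribution was shifted: the median difference over all genes was 0.22 and, without clones 21 and 24, 0.40. Dividing each library by its median ratio to the others moved that median to -0.04 and gave 2700 higher and 3033 lower calls. Quantile normalization gave 2566 and 2832, with a median of -0.03. A list's median is therefore given beside that of all genes, and with its range over 8 settings: the fit as described, the fit without clones 21 and 24, 2 rescalings that leave out mitochondrial or also Gm and pseudogene entries, these 2 scalings, and a correction for transcript length with and without clones 21 and 24. These settings are called the scalings below.

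Groups that did not overlap at all were fewer. Over all clones, 28 genes (0.261%) were higher in every library of clones 15 to 26 than in any of clones 1 to 13, and 119 (1.11%) were lower. Without clones 21 and 24 these counts were 1622 (15.1%) and 176 (1.64%). The 2 libraries behaved unlike each other here. Of the 1622 higher genes, clone 21 also lay above clones 1 to 13 in 822, but clone 24 did so in only 44 and lay below all of clones 1 to 13 in 1146. Of the 176 lower genes, clone 21 lay below clones 1 to 13 in 144 and clone 24 in 149. The library of clone 24 thus lay low in most genes of both kinds. Relative to the mean of clones 1 to 13, its median was -0.89 over the tenth of genes with the longest transcripts and -0.52 over the shortest. Its low values therefore cannot show that it shares the lower genes of its set. Since these sets were chosen on such values, the counts describe the split and support nothing. List counts below stand against the 28.1% and 11.4% of all genes called higher and lower, and 53.2% and 12.4% without clones 21 and 24, and a list near these shares is no result about its members.

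Among the lists of more than 2 genes, splicing regulators had the largest upward median. The kinases Clk1, Clk2 and Clk4 phosphorylate the serine- and arginine-rich splicing factors, and the list joins both to other nuclear proteins of pre-mRNA processing. Of its 28 genes, 20 were called higher and none lower over all clones, and 26 higher without clones 21 and 24. The median difference was 1.23 and 1.58, against 0.22 and 0.40 over all genes, and ran from 0.94 to 1.58 over the scalings. Without clones 21 and 24, 19 of the 28 were higher with no overlap between the sets, against 15.1% of all genes.

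Rsrp1, an arginine- and serine-rich nuclear protein, was at 12.9, 16.9 and 21.6 TPM in clones 1 to 13 and at 19.1, 203 and 300.0 TPM in clones 15 to 26. The lowest value of the second set was that of clone 24, inside the range of clones 1 to 13, and the other 10 libraries held at least 132 TPM. The difference was 3.26 ± 0.29 / 3.62. Clk1 was at 7.75, 10.4 and 13.5 TPM in clones 1 to 13 and 6.04, 73.2 and 96.8 TPM in clones 15 to 26, a difference of 2.42 ± 0.29 / 2.75. Clone 24, at 6.04 TPM, was below every library of clones 1 to 13, and the others were above all of them. Medians of Srrm2, a scaffold of the spliceosome, were 23.8 and 118 TPM (difference 2.08 ± 0.37 / 2.49), and those of the speckle protein Son were 15.9 and 78.1 TPM (difference 1.89 ± 0.33 / 2.33). Luc7l3, a partner of the U1 snRNP, was the member whose sets did not overlap in any library, from 23.7, 35.9 and 49.8 TPM to 62.4, 102 and 149 TPM (difference 1.5 ± 0.14 / 1.6). Srsf3 and Srsf5, which encode serine- and arginine-rich factors themselves, were not called, with differences of -0.16 ± 0.10 / -0.05 and -0.28 ± 0.26 / 0.08.

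Among genes with an annotated name that were called in both fits and did not overlap without clones 21 and 24, the 8 with the largest upward difference were Tspoap1, Rsrp1, Pde1b, Leng8, Arhgef40, Mapk8ip3, Sap25 and Ogt. Tspoap1, which binds the mitochondrial translocator protein, was at 0.956, 3.28 and 6.25 TPM in clones 1 to 13 and 1.28, 79.6 and 214 TPM in clones 15 to 26 (difference 4.0 ± 0.47 / 4.53). Its low library was clone 24 again, and the other 10 held at least 54.0 TPM. Pde1b, a calmodulin-dependent phosphodiesterase, went from a median of 0.493 to 11.6 TPM, and Mapk8ip3, a scaffold of the JNK pathway, from 1.87 to 20.01 TPM. Ogt, the enzyme that attaches N-acetylglucosamine to nuclear and cytosolic proteins, had medians of 2.18 and 23.2 TPM. Sap25, a Sin3A corepressor subunit, and Leng8 differed by 2.59 ± 0.26 / 2.76 and 2.86 ± 0.36 / 3.24. Arhgef40, a guanine nucleotide exchange factor, was the one of the 8 whose sets did not overlap with clones 21 and 24 included: clones 1 to 13 held 0.601, 2.02 and 3.32 TPM and clones 15 to 26 held 8.71, 16.6 and 34.4 TPM, with clone 21 at 34.4 and clone 24 at 9.22 TPM.

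**Figure D2:**
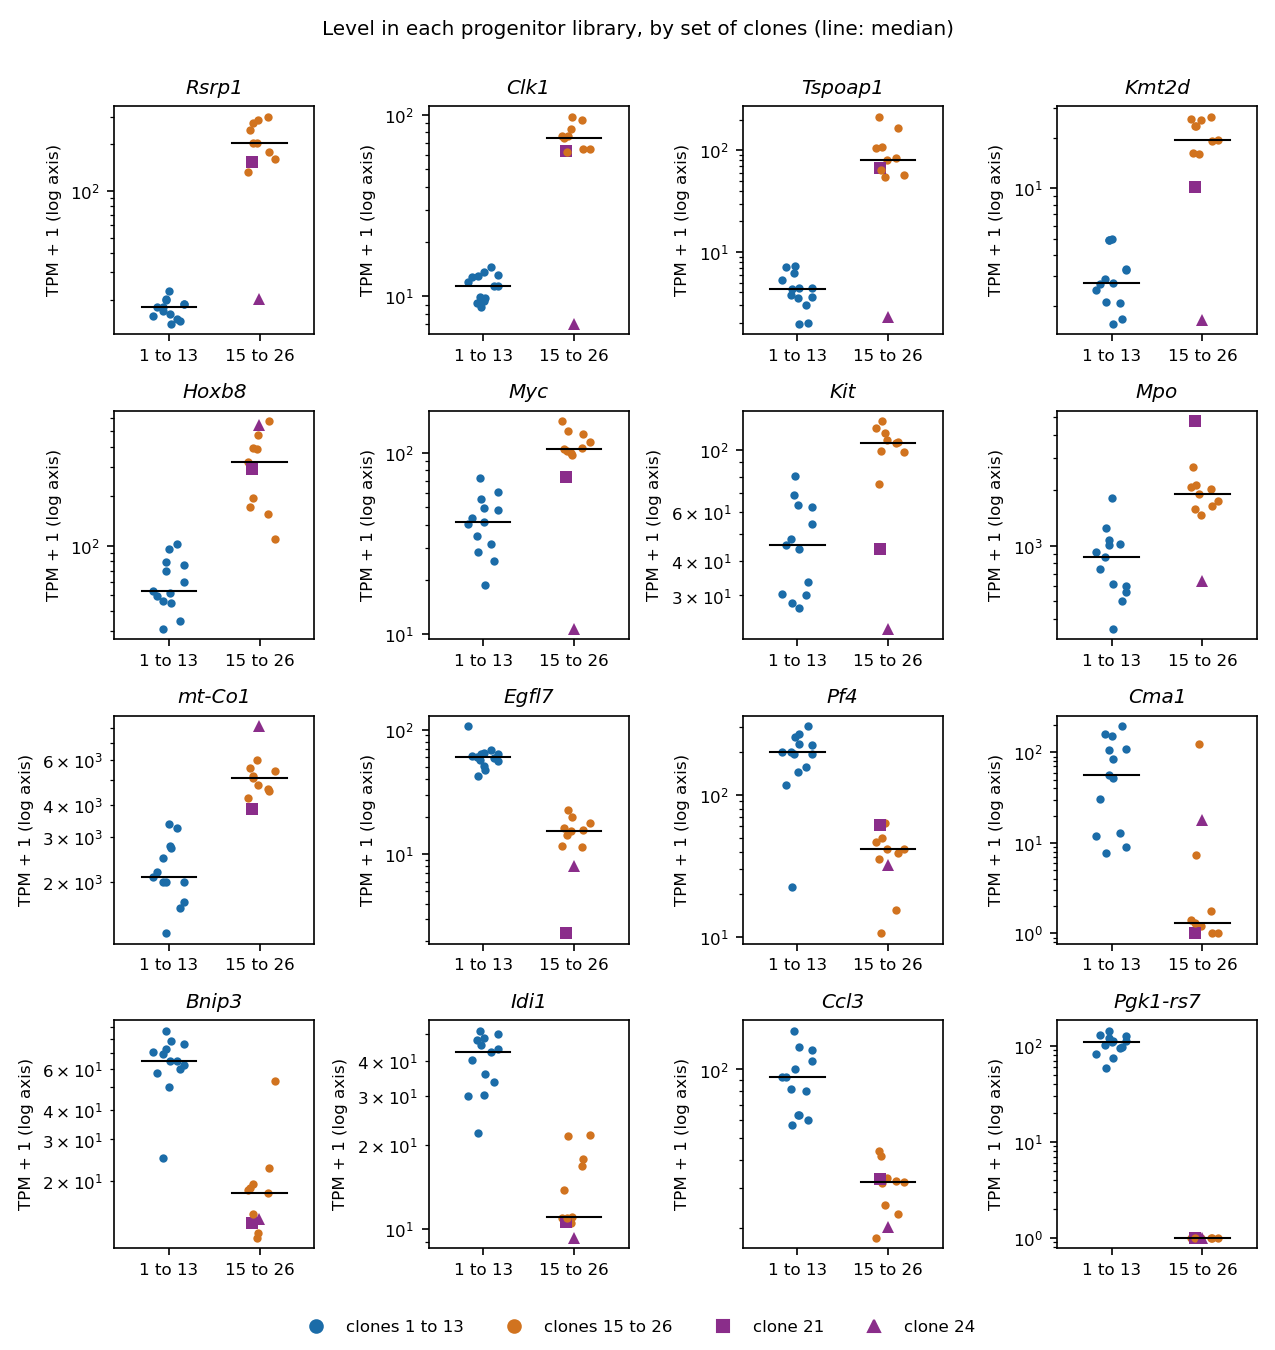
Levels of 16 genes in the 24 progenitor libraries on a log axis of TPM + 1, by set, with a line at each median. For Rsrp1, Clk1, Tspoap1 and Kmt2d the triangle of clone 24 sits with or below clones 1 to 13, while for Egfl7, Idi1, Ccl3 and Pgk1-rs7 it sits with clones 15 to 26. Low values of clone 24 do not show that it shares the lower genes of its set.

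Chromatin regulators were higher in most cases. Of 18 measured genes, 11 were called higher and 2 lower (13 and 2 without clones 21 and 24), with a median difference of 0.97 (0.53 to 1.31 over the scalings). Kmt2d, a histone H3 lysine 4 methyltransferase, was at 0.561, 1.73 and 3.98 TPM in clones 1 to 13 and 0.658, 18.3 and 25.7 TPM in clones 15 to 26 (difference 2.48 ± 0.34 / 2.91). Tet2, which oxidises methylcytosine and restrains myeloid growth, was at 1.0, 1.71 and 2.51 TPM and 1.09, 11.4 and 15.3 TPM (difference 1.87 ± 0.27 / 2.28). In both genes clone 24 lay within the range of clones 1 to 13, as did clone 21 for Tet2, at 2.47 TPM, and without clones 21 and 24 the sets did not overlap. The called lower members were the small chromatin proteins Hmgb2 (-0.93 ± 0.18 / -0.76) and Hmgb1 (-0.72 ± 0.19 / -0.45). Median transcript length in this list was 3525 bases, against 1799 for all genes tested.

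Ribosome biogenesis genes, whose products make and process ribosomal RNA in the nucleolus, were called higher in 10 of 18 cases and lower in 1 (14 and 1 without clones 21 and 24). Their median difference was 0.52, with a range of 0.23 to 0.78 over the scalings. The RNA polymerase I subunit Polr1b was at 2.68, 4.88 and 6.99 TPM in clones 1 to 13 and 1.71, 24.1 and 30.9 TPM in clones 15 to 26 (difference 1.73 ± 0.28 / 2.11), and Polr1a differed by 1.16 ± 0.34 / 1.54. The E-box CACGTG was searched on both strands in the promoter windows of the 10 called genes, 8 of which have at least 1 window. It stood in 1 of 10 windows (10%), that of Nop2, against 7.15% of all windows and 10.4% of those of genes tested. Clone 24 had the lowest Polr1b of all 24 libraries, and clone 21, at 11.1 TPM, was above clones 1 to 13. The exception was Nhp2, a snoRNP protein (-0.41 ± 0.07 / -0.39). Of 13 translation factors, 5 were called higher, led by the helicase Eif4a2 (medians 28.2 and 87.8 TPM, difference 1.31 ± 0.29 / 1.72) and the scaffold Eif4g1 (1.19 ± 0.30 / 1.49), and 2 were called lower (6 and 2 without clones 21 and 24), with a median of both signs over the scalings.

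Genes for the ribosomal proteins themselves differed in the other direction. Of 83 ribosomal protein genes 52 were called lower and 4 higher, with a median of -0.31 that ran from -0.61 to -0.16 over the scalings. Their transcripts made up 17.7% ± 2.19 of TPM (SD, n = 13) in clones 1 to 13 and 13.5% ± 2.17 (SD, n = 11) in clones 15 to 26. Clone 24 held 19.7%, within the range of clones 1 to 13 (14.5 to 22.1%), and without clones 21 and 24 the second set held 12.99% ± 0.638 (SD, n = 9), between 11.8 and 14.1%. Histone transcripts were lower as well, except in clone 26: 16 of 30 genes were called lower and 1 higher. Their share was 0.0637% ± 0.00731 (SD, n = 13) and 0.0325% ± 0.0176 (SD, n = 11). Clone 26, at 0.0805%, had the highest share of all 24 libraries, above the range of clones 1 to 13 (0.0482 to 0.0752%). Next in its set was clone 19, at 0.0395%.

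**Figure D3:**
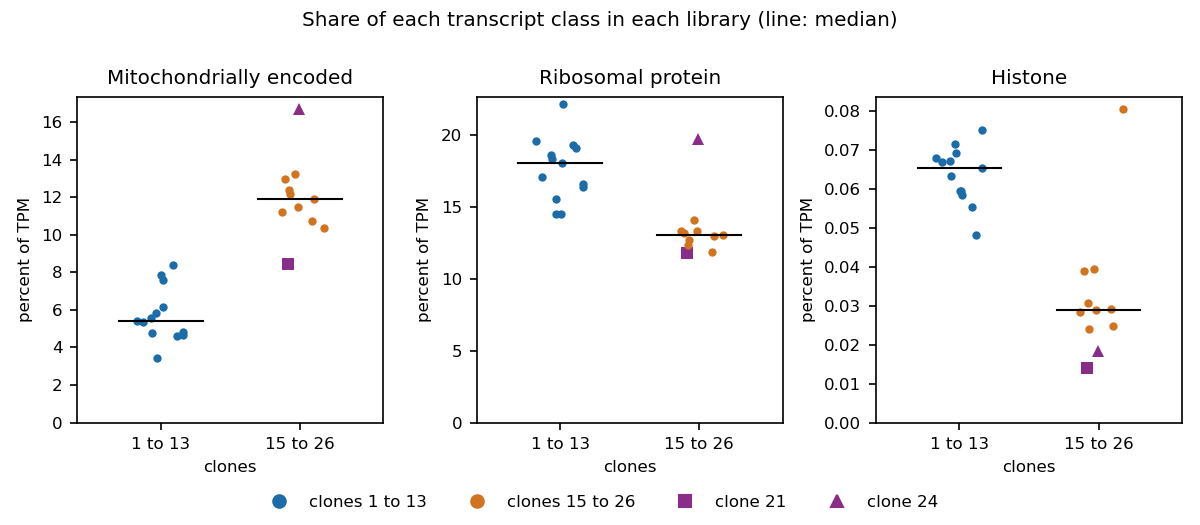
Percent of TPM in mitochondrially encoded, ribosomal protein and histone transcripts, 1 point per progenitor library with a line at each median. Mitochondrial shares of the sets meet at 8.38 and 8.45%, and clone 24 has the highest mitochondrial share of all 24, at 16.7%, beside a ribosomal protein share of 19.7%.

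Mitochondrially encoded transcripts took a larger share in every library of clones 15 to 26. The share was 5.73% ± 1.44 (SD, n = 13; 3.44 to 8.38%) in clones 1 to 13 and 11.97% ± 2.06 (SD, n = 11; 8.45 to 16.7%) in clones 15 to 26. Of the 13 protein-coding genes of the mitochondrial genome, all subunits of the respiratory chain or ATP synthase, 10 were called higher and none lower over all clones (10 and 1 without clones 21 and 24). The difference was uneven among them. Complex I subunit mt-Nd4l was at 1572, 2476 and 4082 TPM in clones 1 to 13 and 4122, 7788 and 10922 TPM in clones 15 to 26 (difference 1.5 ± 0.15 / 1.54), and cytochrome oxidase subunit mt-Co1 was at 1255, 2089 and 3356 TPM and 3859, 5074 and 8124 TPM (difference 1.24 ± 0.14 / 1.21), neither with overlap. By contrast mt-Co2, of the same oxidase, had medians of 2471 and 2182 TPM (difference -0.05 ± 0.17 / -0.24, not called), and mt-Nd3 differed by -0.39 ± 0.24 / -0.64.

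Nuclear genes for the same complexes were not higher with them. Of 19 nuclear oxidative phosphorylation genes, 10 were called lower and none higher over all clones (10 and 3 without clones 21 and 24), with a median of -0.25 that ran from -0.55 to -0.14 over the scalings. Ndufa4, a cytochrome oxidase-associated subunit, was at 849, 1076 and 1528 TPM in clones 1 to 13 and 365, 554 and 807 TPM in clones 15 to 26 (difference -0.96 ± 0.12 / -0.92), with no overlap. Ndufa1, of complex I, was at 113, 148 and 205 TPM and 62.0, 93.9 and 178 TPM (difference -0.63 ± 0.15 / -0.74), where clones 21 and 26, at 178 and 166 TPM, lay within the range of clones 1 to 13. The 3 called higher without clones 21 and 24 were Sdha (0.54), Ndufs1 (0.43) and Ndufv1 (0.30), larger subunits of complexes I and II.

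Both parts of the fusion gene were higher in clones 15 to 26. Hoxb8 was at 30.1, 51.6 and 101 TPM in clones 1 to 13 and 109, 324 and 572 TPM in clones 15 to 26, with no overlap (difference 2.34 ± 0.26 / 2.24). Clone 26, at 109 TPM, was nearest to clones 1 to 13, and clones 15 and 24 were highest. Esr1, the estrogen receptor gene, was at 1.56, 3.25 and 5.89 TPM and 3.86, 18.5 and 30.5 TPM (difference 1.85 ± 0.25 / 1.74), and here clone 26, at 3.86 TPM, fell within the range of clones 1 to 13. The extremes were the same libraries for both genes: clone 13 was lowest for both in its set, clone 15 highest and clone 26 lowest in the other. TPM per gene symbol do not separate a fusion gene from the endogenous genes, Hoxb8 at chr11:96281905-96285315 and Esr1 at chr10:4611593-5005614 of GRCm38. The directions of both held under all scalings.

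Among 15 measured stem and progenitor genes, Myc and Kit were called higher and Cd34 lower over all clones. Without clones 21 and 24 the counts were 6 and 1. Myc, the growth-promoting transcription factor, was at 17.8, 40.3 and 71.4 TPM in clones 1 to 13 and 9.76, 103 and 148 TPM in clones 15 to 26 (difference 1.14 ± 0.31 / 1.51), and clone 24 was lowest of all. Kit was at 26.03, 44.5 and 79.4 TPM and 21.8, 105 and 125 TPM (difference 0.92 ± 0.25 / 1.24). Its transcript is long, at 5227 bases, and with the length correction the difference was 0.34 / 0.42, still called. Clones 20 and 21, at 74.3 and 43.0 TPM, lay within the range of clones 1 to 13 and clone 24 below it. Cd34, a surface sialomucin of stem and progenitor cells, was at 349.6, 485 and 742 TPM and 119, 332 and 541 TPM (difference -0.67 ± 0.20 / -0.41), and its lowest libraries were clones 21 and 24. Flt3, a receptor of early progenitors, was at 8.62, 17.6 and 28.0 TPM and 4.15, 22.2 and 34.6 TPM, and its difference of 0.18 ± 0.27 / 0.50 was not called. It was called without clones 21 and 24, and its sign turned with median-ratio scaling (-0.10), quantile normalization (-0.069) and the length correction (-0.27). The list's median of 0.17 turned sign as well, between -0.24 and 0.43.

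Receptors and transcription factors of the granulocyte and monocyte lineages are read against the 28.1% of all genes called higher and 11.4% called lower, and 53.2% and 12.4% without clones 21 and 24. Of 11 cytokine receptors, 5 were called higher and 1 lower in both fits, with a median of 0.63 (0.11 to 0.80 over the scalings). Csf3r, the G-CSF receptor, was at 3.75, 8.18 and 14.1 TPM in clones 1 to 13 and 3.88, 15.6 and 33.4 TPM in clones 15 to 26 (difference 0.92 ± 0.26 / 1.0), and Csf2ra, the GM-CSF receptor subunit, differed by 1.02 ± 0.27 / 1.06. Il3ra, a receptor subunit for interleukin 3, was the one called lower (-0.54 ± 0.20 / -0.55). Of 11 myeloid transcription factors, 6 were called higher and 1 lower (8 and 1 without clones 21 and 24), with a median of 0.66 (0.25 to 0.82). Gfi1, a repressor needed for neutrophil formation, was at 5.93, 12.1 and 16.9 TPM and 5.35, 35.0 and 42.7 TPM (difference 1.36 ± 0.24 / 1.56), and clone 24 lay below all of clones 1 to 13 while the other 10 lay above them. Cebpe, which drives secondary granule genes, was at 0.375, 1.35 and 4.65 TPM and 0.920, 5.05 and 34.2 TPM (difference 1.42 ± 0.40 / 1.25), with wide overlap. Spi1 and Irf8, which direct monocyte fate, were not called (-0.07 ± 0.20 / 0.14 and -0.06 ± 0.34 / 0.24).

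Granule genes of the progenitor stage went different ways. Mpo, myeloperoxidase, was at 351, 864 and 1818 TPM in clones 1 to 13 and 642, 1917 and 4764 TPM in clones 15 to 26 (difference 1.22 ± 0.25 / 1.24), with clone 21 highest of all libraries. Srgn, the proteoglycan core that packs granule proteins, was at 723, 930.5 and 1190.3 TPM and 333, 448 and 596 TPM (difference -1.05 ± 0.11 / -1.04), with no overlap. Of the list of 8 primary granule genes, Mpo was thus called higher, Srgn and Ctsg (-0.35 ± 0.11 / -0.36) lower, and 5 were not called, with the same counts in both fits. Their median was 0.02, with both signs over the scalings.

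Secondary granule and neutrophil genes varied more within the sets than between them. Of 18 measured, Lcn2, the iron-siderophore binder lipocalin 2, was the only one called, in both fits, at 0.521, 1.92 and 16.6 TPM in clones 1 to 13 and 4.33, 30.8 and 228 TPM in clones 15 to 26 (difference 3.03 ± 0.54 / 2.82). S100a9, a subunit of calprotectin, was at 2.33, 4.29 and 331 TPM and 0.202, 43.1 and 4500.3 TPM. Its libraries fell far apart inside both sets: clones 1 to 5 held 105 to 331 TPM and clones 6 to 13 at most 4.43 TPM, while clones 20 and 21 held 4500.3 and 2452 TPM and clone 22 held 0.202 TPM. Ltf, lactoferrin, fell apart the same way, with clones 1 to 5 at 65.3 to 121 TPM, clones 6 to 13 at most 1.87 TPM, and clone 20 at 2252 TPM. Chil3, Ltf, Gm10181 and Gm14327 had the largest SD within clones 1 to 13, and S100a9, S100a8, Ltf and Stfa1 within clones 15 to 26. None of these was called between the sets. The summed level of 6 neutrophil markers ran from 3.81 to 734 TPM in clones 1 to 13 and from 0.763 to 10681 TPM in clones 15 to 26. Stfa1 has close paralogs, so its level is uncertain.

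Of 13 measured monocyte genes, 4 were called higher and 1 lower (5 and 0 without clones 21 and 24), where 28.1% and then 53.2% of all genes were called higher. Lgals3, galectin 3, was at 0.668, 5.91 and 28.4 TPM in clones 1 to 13 and 0.30, 23.7 and 371 TPM in clones 15 to 26 (difference 2.21 ± 0.66 / 2.32), and Ctss, the protease cathepsin S, was at 0.377, 1.12 and 19.95 TPM and 0.462, 7.47 and 90.6 TPM (difference 1.83 ± 0.58 / 2.05). Both overlapped, and clone 26 held the lowest Lgals3 of all 24 libraries, at 0.30 TPM. The median of the list, 0.52, ran from 0.08 to 0.86. The lysosomal genes Cd68 (1.11 ± 0.36 / 1.28) and Ctsb (0.91 ± 0.34 / 1.03) were also called higher, as were 2 others of 15, with 2 called lower (5 and 2 without clones 21 and 24), and that list's median took both signs over the scalings.

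The largest downward list medians were those of neighbouring lineages: mast cells and basophils, and red cells and megakaryocytes. GATA transcription factors act in all of them, and Gata1 itself was among the lower genes (medians 2.36 and 0.344 TPM, difference -1.49 ± 0.26 / -1.58). The motif AGATAA, searched on both strands, stood in 7 of 11 promoter windows (63.6%) of the genes of both lists called lower in both fits, which are 11 genes, 10 of them with a window. Here as for the other motifs, windows run from 250 bases before to 50 after a start site, from RefSeq on GRCm38.p6. Of all 32851 windows 11.2% held the motif, and 6.34% of the 9780 windows of genes tested. By gene, 6 of the 10 held it, and Il1rl1 held it in both of its windows. Mcpt8, Gp9, Gata1 and Cma1, which had the largest difference among these genes, held none, and the match of Pf4 lay after the start. A match is a description of letters and not evidence of binding, and a part of GATA factors in the differences was not tested. The 250 bases before the start of 3 mast cell and basophil genes are shown because each holds the motif, in capitals, within 40 bases of the start; TTATCT is the motif on the other strand, and each runs 5′ to 3′ along the gene's strand. Ms4a2, which encodes the beta chain of the IgE receptor, is at chr19:11623720-11623969 on the minus strand, Prss34, a serine protease of basophils and mast cells, at chr17:25298144-25298393 on the plus strand, and Cd200r3, a receptor of basophils and mast cells, at chr16:44943428-44943677 on the plus strand.
Ms4a2: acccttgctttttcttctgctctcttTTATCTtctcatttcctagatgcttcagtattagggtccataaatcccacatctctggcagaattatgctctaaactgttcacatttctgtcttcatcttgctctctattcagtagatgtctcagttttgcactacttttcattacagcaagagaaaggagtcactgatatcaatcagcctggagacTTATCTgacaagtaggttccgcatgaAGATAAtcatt
Prss34: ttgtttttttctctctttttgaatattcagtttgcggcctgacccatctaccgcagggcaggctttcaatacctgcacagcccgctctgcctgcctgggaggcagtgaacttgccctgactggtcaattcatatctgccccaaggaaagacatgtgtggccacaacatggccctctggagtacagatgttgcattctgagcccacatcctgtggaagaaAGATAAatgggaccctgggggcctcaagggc
Cd200r3: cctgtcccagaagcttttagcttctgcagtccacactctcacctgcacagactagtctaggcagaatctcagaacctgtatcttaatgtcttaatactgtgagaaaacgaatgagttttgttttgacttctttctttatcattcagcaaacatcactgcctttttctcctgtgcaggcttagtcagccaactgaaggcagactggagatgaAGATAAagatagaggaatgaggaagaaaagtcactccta

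Of 9 measured mast cell and basophil markers 6 were called lower and none higher, in both fits, with a median difference of -1.55 that ran from -1.83 to -1.54 over the scalings. Cma1, mast cell chymase, was at 6.77, 54.8 and 195 TPM in clones 1 to 13 and 0, 0.317 and 123 TPM in clones 15 to 26 (difference -4.08 ± 0.75 / -4.22). Clones 19 and 24, at 123 and 16.8 TPM, held it inside the range of clones 1 to 13, and the other 9 held at most 6.26 TPM. Prss34 was at 7.14, 82.5 and 153 TPM and 0.149, 5.95 and 114 TPM (difference -2.61 ± 0.65 / -2.98), again with clones 19 and 24 highest in the second set. In clones 1 to 13 both genes were lowest in clone 13. Ms4a2 had medians of 22.2 and 1.54 TPM (difference -2.55 ± 0.51 / -2.42), and Cd200r3 of 4.07 and 1.09 TPM (difference -1.04 ± 0.30 / -1.01). Mcpt8, a basophil protease, had medians of 339.9 and 67.5 TPM (difference -1.68 ± 0.36 / -1.70). The 3 not called were Cpa3 (-0.57 ± 0.28 / -0.48), Hdc (-0.51 ± 0.39 / -0.30) and Tpsb2 (-0.43 ± 0.41 / -0.48). The summed level of 5 markers, Cpa3 included, overlapped widely, from 589 to 2955 TPM and from 313 to 2308 TPM. In bulk cultures, fewer cells of a type and less RNA per cell cannot be told apart.

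Erythroid and megakaryocyte markers were lower in 5 of 7 measured cases and higher in none, in both fits, with a median of -1.49 (-1.82 to -1.44 over the scalings). Pf4, platelet factor 4, was at 21.5, 198 and 304 TPM in clones 1 to 13 and 9.66, 40.4 and 62.2 TPM in clones 15 to 26 (difference -2.25 ± 0.34 / -2.32). Clone 13 alone, at 21.5 TPM, overlapped the second set. Hbb-bs, an adult beta globin, was at 5.82, 15.3 and 155 TPM and 0, 2.15 and 7.33 TPM (difference -2.59 ± 0.42 / -2.59), and only clone 24 of the second set reached into the range of the first. Car2 and Itga2b, also of this list, were at like medians in both sets (81.6 and 74.1 TPM, 68.9 and 70.0 TPM). Klf1 and Hba-a1, which define red cells, did not pass the filter of a mean of 1 TPM. Of the 4 measured lymphoid genes Dntt, the terminal transferase of early lymphoid cells, was called lower, at 3.81, 16.4 and 37.4 TPM and 0, 2.31 and 8.46 TPM (difference -2.32 ± 0.42 / -2.03), and none was called higher over all clones (1 and 1 without clones 21 and 24).

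**Figure D4:**
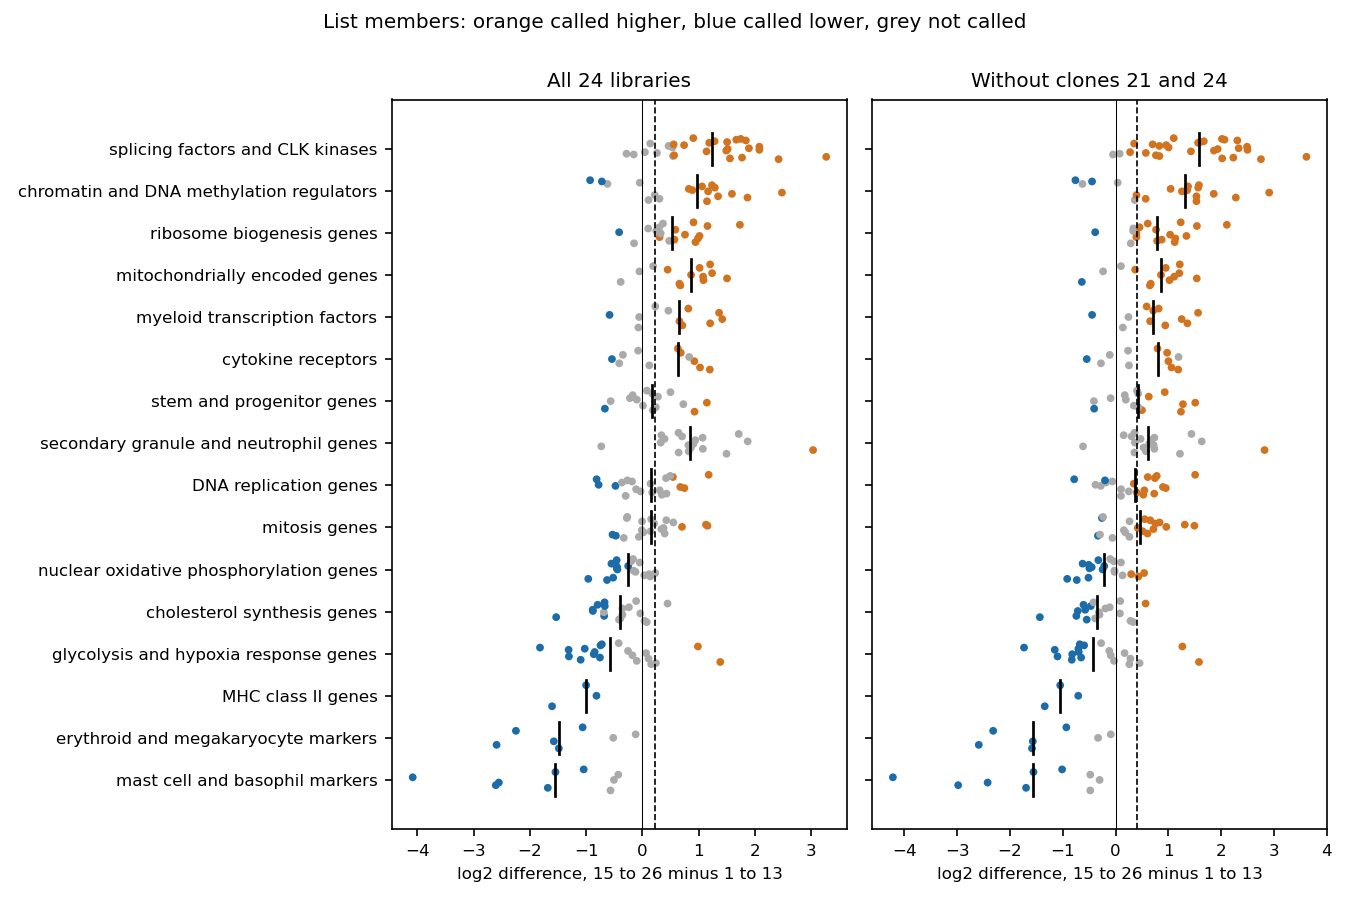
Differences of the members of 16 lists, 1 point per gene, over all 24 libraries (left) and without clones 21 and 24 (right), with a thick line at each list's median and a dashed line at the median of all genes (0.22 and 0.40). Splicing and chromatin lists lie right of the dashed line, and the hypoxia, MHC class II, erythroid and mast cell lists lie left of it.

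Genes of glycolysis and of the response to low oxygen were lower in 10 of 20 cases. Transcription factors of the HIF family switch on these genes when oxygen is scarce, through the core sequence ACGTG. Of all genes 11.4% were called lower. Another 2 of the list were called higher, these counts were the same in both fits, and the list had a median of -0.57 that ran from -0.81 to -0.44 over the scalings. Bnip3, a HIF target that marks mitochondria for removal, was at 24.03, 63.8 and 86.2 TPM in clones 1 to 13 and 10.4, 16.7 and 52.1 TPM in clones 15 to 26 (difference -1.82 ± 0.21 / -1.74). Clone 26, at 52.1 TPM, was the only library of the second set within the range of the first, and the other 10 held at most 21.7 TPM. Clone 13 was lowest in the first set. Ldha, lactate dehydrogenase, had medians of 634 and 245 TPM (difference -1.31 ± 0.16 / -1.15), and the glycolytic enzyme genes Tpi1 (-1.31 ± 0.19 / -1.10), Pfkl (-1.10 ± 0.26 / -0.83), Eno1 (-0.85 ± 0.24 / -0.70) and Aldoa (-0.76 ± 0.17 / -0.65) were called lower with it. The 2 higher members were Hk2, the inducible hexokinase, at 2.81, 5.35 and 7.36 TPM and 1.88, 15.6 and 20.4 TPM (difference 1.38 ± 0.24 / 1.58), and the growth factor gene Vegfa (0.99 ± 0.28 / 1.27). Gapdh was not called (-0.18 ± 0.15 / -0.09).

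The motif ACGTG stood in 7 of 16 windows (43.8%) of the 10 called lower genes of that list, against 19.6% of all windows and 26.6% of those of genes tested. The promoter of Bnip3 is shown as the gene with the largest difference of the list. Its 250 bases before the start lie at chr7:138909507-138909756 on the minus strand, with the motif in capitals; there it reads the same on both strands, as CACGTG.
Bnip3: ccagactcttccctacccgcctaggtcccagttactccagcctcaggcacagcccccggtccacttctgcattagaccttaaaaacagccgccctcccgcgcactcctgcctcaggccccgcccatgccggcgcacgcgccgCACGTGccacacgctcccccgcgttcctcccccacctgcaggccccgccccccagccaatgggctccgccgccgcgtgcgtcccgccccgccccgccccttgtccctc

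Pgk1, the glycolytic phosphoglycerate kinase, and its copy Pgk1-rs7 were both lower in clones 15 to 26. Pgk1-rs7 is a processed pseudogene at chr12:10898986-10900240 of GRCm38, on the minus strand. It was at 58.3, 109 and 142 TPM in clones 1 to 13 and listed at 0 in all 11 libraries of clones 15 to 26, clones 21 and 24 included. It was the only gene listed at 0 throughout one set and above 1 TPM throughout the other. Its 1255 annotated bases are all found, without a mismatch or gap, in a Pgk1 transcript of 1825 bases, so reads of the copy cannot be told from reads of that stretch of Pgk1. Pgk1 itself was at 167, 318 and 427 TPM and 130.4, 170.1 and 212 TPM (difference -0.87 ± 0.12 / -0.82). The sum of both was 225, 438 and 512 TPM in clones 1 to 13 and 130.4, 170.1 and 212 TPM in clones 15 to 26, and did not overlap.

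Cholesterol synthesis genes were lower in part. Of 18 genes 7 were called lower and none higher over all clones (7 and 1 without clones 21 and 24), with a median of -0.40 that ran from -0.79 to -0.32. Idi1, isopentenyl diphosphate isomerase, was at 21.1, 42.1 and 50.3 TPM in clones 1 to 13 and 8.31, 10.1 and 20.8 TPM in clones 15 to 26 (difference -1.53 ± 0.17 / -1.44), with no overlap. Dhcr7, the last enzyme of one branch, was at 43.9, 124 and 254 TPM and 15.2, 68.9 and 107 TPM (difference -0.88 ± 0.29 / -0.58). The sterol regulatory element TCACNCCAC was searched in the 7 windows of 5 genes, of 6 called lower in both fits. It stood in 0 of them and in 1.24% of all windows, which says only that these letters are not in these windows.

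Several secreted and signalling proteins were among the clearest lower genes. Egfl7, a secreted protein whose gene hosts miR-126, was at 41.7, 59.6 and 106 TPM in clones 1 to 13 and 1.3, 14.4 and 21.7 TPM in clones 15 to 26 (difference -2.28 ± 0.26 / -1.94). The chemokine gene Ccl3 was at 55.7, 91.3 and 147 TPM and 17.01, 30.7 and 42.7 TPM (difference -1.59 ± 0.18 / -1.55), and Ccl9, another myeloid chemokine, was at 667, 868 and 1271 TPM and 155, 439 and 638 TPM (difference -1.24 ± 0.18 / -0.99). Casp6, an apoptotic caspase, was at 7.33, 11.3 and 15.8 TPM and 0.854, 4.20 and 5.68 TPM (difference -1.45 ± 0.21 / -1.17), and Rgs18, a brake on G protein signalling in blood cells, differed by -1.32 ± 0.17 / -1.11. None of these 5 genes overlapped between the sets, as for 1.11% of all genes, but they were picked among genes without overlap when clones 21 and 24 are left out. Clone 24 lay with or below clones 15 to 26 in each. Since it lay low in most genes of both kinds, this does not show that it shares the lower genes of its set. Ccl4 (-1.15 ± 0.23 / -0.86) was lower with Ccl3, while of the other inflammatory and NF-kB genes 4 were called higher, so that list held 4 higher and 2 lower of 11 (6 and 2 without clones 21 and 24) and a median of both signs over the scalings.

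MHC class II genes, which present antigen to helper T cells, were lower in clones 15 to 26. All 3 measured members were called lower in both fits, with a median of -1.0 (-1.33 to -0.97). H2-Ab1, a class II beta chain, was at 1.39, 7.90 and 33.5 TPM and 0, 1.3 and 9.85 TPM (difference -1.61 ± 0.40 / -1.34), and H2-DMa, which helps load peptides, was at 30.5, 37.0 and 74.7 TPM and 8.17, 24.6 and 37.6 TPM (difference -0.82 ± 0.19 / -0.71). Of 10 class I presentation genes 2 were called higher and none lower (5 and 0 without clones 21 and 24), with a median of both signs over the scalings. Nlrc5, their transactivator, was at 0.225, 1.93 and 4.54 TPM and 0.344, 17.4 and 32.5 TPM (difference 2.34 ± 0.36 / 2.67), and Tap1 differed by 0.70 ± 0.27 / 0.99. Members of the H2 family share sequence, so their single levels are uncertain. Of 12 measured interferon response genes 4 were called higher and 1 lower (6 and 0 without clones 21 and 24), near the 28.1% and 53.2% of all genes called higher, led by Stat2 (medians 0.869 and 6.55 TPM, difference 1.89 ± 0.23 / 2.07) and the RNA sensor Ddx58 (1.18 ± 0.21 / 1.28). That list's median of 0.22 took both signs over the scalings.

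Among stress and survival genes the share called higher was near or below that of all genes (28.1%, and 53.2% without clones 21 and 24), except for survival genes in the second fit. Of 20 integrated stress and unfolded protein response genes, 5 were called higher and 2 lower (12 and 2 without clones 21 and 24), with a median of 0.34 (0.06 to 0.56). Trib3, a pseudokinase induced in amino acid and endoplasmic reticulum stress, was at 0.974, 3.86 and 6.35 TPM and 2.02, 19.9 and 42.5 TPM (difference 1.58 ± 0.39 / 1.92), with clones 20, 21, 24 and 26 at or under the highest library of clones 1 to 13. Ddit3, the stress factor CHOP, was at 4.70, 15.9 and 24.05 TPM and 11.1, 40.5 and 105 TPM (difference 1.43 ± 0.29 / 1.55). The p53 target Cdkn1a, an inhibitor of cyclin-dependent kinases, was at 1.70, 3.03 and 8.36 TPM and 3.99, 10.4 and 13.7 TPM (difference 1.29 ± 0.21 / 1.42), and 3 of 13 survival and p53 target genes were called higher and none lower (9 and 0 without clones 21 and 24). The small chaperone gene Hspe1 was the only called heat shock gene of 7 over all clones (-0.28 ± 0.10 / -0.21), and 3 others were called higher without clones 21 and 24. The early response gene Junb was called higher (0.90 ± 0.21 / 1.06), while 2 of 9 in its list were called lower in both fits. The medians of the heat shock and early response lists took both signs over the scalings.

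Proliferation genes were called higher more often once clones 21 and 24 were left out, as were all genes (28.1% and then 53.2%). Of 20 DNA replication genes 4 were called higher and 3 lower over all clones, and 11 and 2 without clones 21 and 24. Of 20 mitosis genes the counts were 3 and 2, and 11 and 2. Over all clones the medians of these 2 lists, 0.16 and 0.15, lay under that of all genes and turned negative with median-ratio scaling. Without clones 21 and 24 they were 0.37 and 0.47, against 0.40 for all genes. Uhrf1, which guides maintenance of DNA methylation, was at 6.48, 15.2 and 32.1 TPM and 4.23, 47.3 and 66.4 TPM (difference 1.18 ± 0.31 / 1.51). Gins2, a subunit of the replicative helicase, was at 51.7, 56.8 and 71.4 TPM and 21.04, 34.3 and 44.4 TPM (difference -0.82 ± 0.11 / -0.78), with no overlap. Mki67, a coat of mitotic chromosomes, was at 2.45, 8.01 and 15.4 TPM and 1.38, 21.1 and 27.0 TPM (difference 1.15 ± 0.32 / 1.49), and the kinesin gene Cenpe was at 3.48, 6.95 and 12.4 TPM and 0.939, 20.4 and 55.4 TPM (difference 1.13 ± 0.33 / 1.31). Clone 24 had the lowest Mki67, Cenpe and Gins2 of all 24 libraries. Of 14 actin cytoskeleton genes, Tmsb4x, thymosin beta 4, and Myl6, a myosin light chain, were called lower (-0.88 ± 0.14 / -0.93 and -0.32 ± 0.10 / -0.33) and none higher over all clones, and 2 were higher and 3 lower without clones 21 and 24.

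Some of the largest differences lay in gene models without a name. Gm47803, annotated as a processed pseudogene on chromosome 9, was at 0, 22.4 and 49.9 TPM in clones 1 to 13 and 102, 486 and 31982 TPM in clones 15 to 26, with clone 24 highest (difference 5.44 ± 0.77 / 4.71). Gm10160 was at 0, 10.7 and 32.1 TPM and 95.5, 186 and 425 TPM (difference 4.58 ± 0.53 / 4.56), and Gm10563 differed by 4.65 ± 0.67 / 4.94 with clone 21 at 0. In the other direction stood Gm12350 (18.8, 27.0 and 46.6 TPM and 0, 0.438 and 18.7 TPM, difference -4.03 ± 0.35 / -3.89), Gm10819 (-3.23 ± 0.50 / -2.70) and Rps3a2, a copy of a ribosomal protein gene (269, 353 and 515 TPM and 0, 103 and 198 TPM, difference -2.41 ± 0.54 / -1.84), none with overlap. Processed copies share sequence with their parent genes, so these levels depend on how reads were divided. The genes named here were picked among those without overlap when clones 21 and 24 are left out. Of 980 annotated pseudogenes measured, 231 were called lower and 133 higher, against 960 and 2842 of 9572 protein-coding genes. These calls are not corrected for transcript length. With that correction, the median of Gm models went from -0.11 to 0.01 and that of ribosomal protein pseudogenes from -0.27 to -0.12. Other pseudogene symbols went from -0.43 to -0.34.

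The difference between the sets went with transcript length. The 10564 genes with a length in the annotation (98.5%) were put in 10 bins of about equal size. The bin with the shortest transcripts, 53 to 536 bases, had a median difference of -0.18, and the bin with the longest, from 4454 bases, one of 0.65. Without clones 21 and 24 these were -0.04 and 0.87, and the medians increased from bin to bin. Across genes, which are not independent, Spearman's rank correlation of difference and length was 0.367 (0.400 without the 2). The median length was 2674 bases for genes called higher and 872 bases for those called lower. In single libraries, the longest bin against the shortest, relative to the mean of clones 1 to 13, ran from -0.46 to 0.50 in clones 1 to 13 and from 0.62 to 1.19 in clones 15 to 26, except clone 24 at -0.37. GC content showed less, with medians from 0.15 to 0.31 over 5 bins of genes, and medians of protein-coding genes by chromosome, over the autosomes and X (20 chromosomes), ran from 0.12 to 0.35. The mitochondrial genome, left out of that range, had a median of 0.86. Also left out were the gene models that the annotation places on Y, of which Gm47283 differed by 3.86 ± 0.50 / 4.13, Gm21860 by 3.22 ± 0.46 / 3.98 and Gm21742 by 1.88 ± 0.31 / 2.36. No label gives RNA integrity or library dates, and the part of library preparation in the result was not tested.

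Once each library's trend of level on length was removed, 2532 genes were called higher and 2554 lower, and the median of all genes was -0.02. The splicing list kept a median of 0.97, chromatin regulators 0.53, ribosome biogenesis 0.35 and mitochondrially encoded genes 0.87. Mast cell and basophil markers were at -1.68, erythroid and megakaryocyte markers at -1.44, glycolysis and hypoxia genes at -0.74 and cholesterol synthesis genes at -0.65. DNA replication and mitosis genes turned to -0.17 and -0.19. This correction was chosen after seeing the data.

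**Figure D5:**
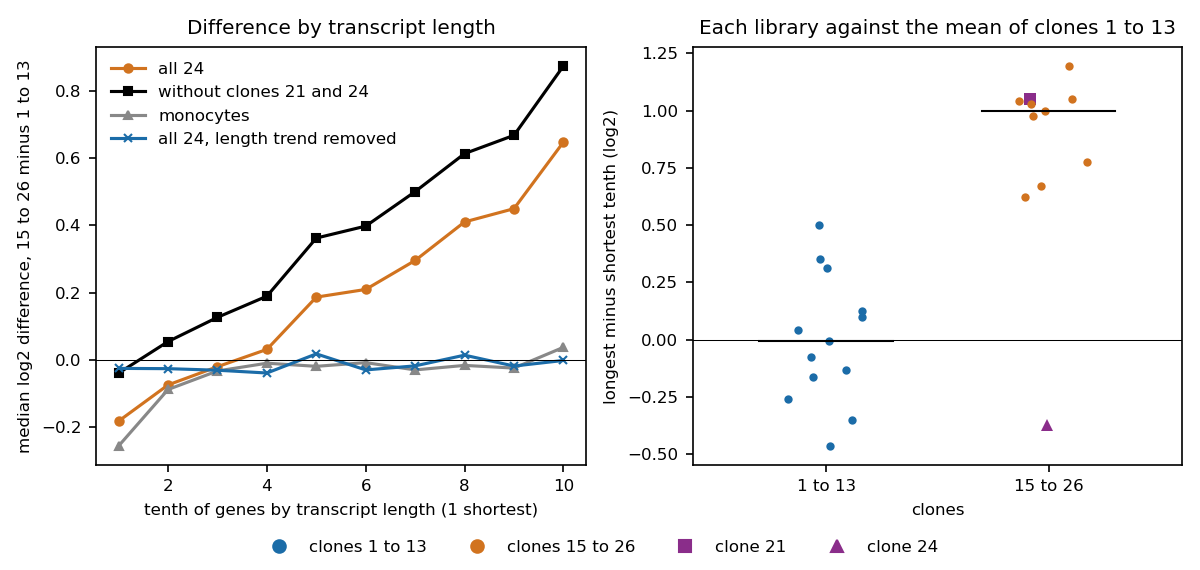
Left, the median log2 difference between the sets in 10 bins of genes by transcript length, over all 24 progenitors, without clones 21 and 24, in monocytes, and after removal of each library's length trend. Right, the longest minus the shortest bin in each progenitor library relative to the mean of clones 1 to 13; clones 15 to 26 lie at 0.62 or more except clone 24, at -0.37.

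In monocytic cultures of the same clones fewer genes were called in the same contrast. Of 10763 genes, 409 were called higher in clones 15 to 26 (3.8%) and 326 lower (3.03%), and the median difference was -0.04. The length relation was weak there, from -0.25 in the shortest bin to 0.04 in the longest. Not all list medians were smaller in monocytes than in progenitors. Those of splicing regulators (0.34 and 1.23) and mast cell and basophil markers (-0.19 and -1.55) were. Those of mitochondrially encoded genes (0.92 and 0.86) and of glycolysis and hypoxia genes (-0.79 and -0.57) were not. Secondary granule and neutrophil genes had medians of -2.28 and 0.84, with 6 of 18 called lower in monocytes. Of the 2806 higher progenitor genes also measured, 279 were called higher in monocytes (9.94% of these, and 70.3% of the monocyte higher calls among genes measured in both) and 13 lower. Of 1111 lower ones, 124 were called lower (11.2%, and 44.0% of such monocyte lower calls) and 2 higher. Pgk1-rs7 was at 0, 94.2 and 177 TPM in monocytes of clones 1 to 13 and 0, 0 and 50.5 TPM in those of clones 15 to 26, so there the sets overlapped. Bnip3 was at 24.8, 63.0 and 155 TPM and 3.29, 11.6 and 52.4 TPM, Idi1 at 11.4, 22.1 and 31.6 TPM and 4.42, 9.68 and 16.6 TPM, and Rsrp1 at 109, 159 and 206 TPM and 144, 261 and 437 TPM. Earlier results of these libraries were known too, so the values stand side by side and are no independent support.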

How the data were processed

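RNA of 24 progenitor and 24 monocytic cultures was sequenced. The authors deposited 1 table of TPM per gene symbol, made with Salmon against mm10, per the submitters' processing notes, with versions not given in the sources used here. Of its 34643 rows, 26 whose symbols had become dates were left out. Column sums ran from 982948 to 999250. TPM keep no read depth, so the depth per library is unknown and no counting interval is given.

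From the TPM, log2(TPM + 1) was fitted with limma 3.58.1 (R 4.3.3), with a variance trend, on the 24 progenitors and the 10720 genes with a mean of at least 1 TPM, then without clones 21 and 24. Calls use Benjamini-Hochberg adjusted p under 0.05 over all genes. On simulated data, 26, 66, 96 and 98% of changes of 0.5, 1, 2 and 3 log2 units were recovered among 10720 genes, with 8 false calls. There the noise was normal, independent between genes and equal in both sets, and only a small part of the genes was changed. The simulation holds no libraries that stand apart and no shift shared by many genes, so these rates do not give the error of the fits here. Monocytes were fitted apart. Where nothing says that libraries came from separate cultures beyond their clone, spread covers these libraries alone.

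Named genes are the 8 named genes and 3 gene models per direction with the largest difference, called in both fits and not overlapping without clones 21 and 24, with at least 10 TPM in the higher set. To these were added up to 2 per list with at least 5 TPM, 7 fixed genes (Hoxb8, Esr1, Kit, Cd34, Flt3, Cpa3 and Mpo), the 4 most variable genes per set, and Pgk1, Pgk1-rs7 and Rsrp1. Other genes named were chosen after their values were seen. The sets, lists and named genes were chosen with earlier results of these data known. Alternatives changed the pseudocount, the filter, the scaling, the variance model and the libraries. Gene coordinates, biotypes, transcript lengths and GC content are from GENCODE vM21 on GRCm38. Promoter windows and their coordinates are from RefSeq on GRCm38.p6.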

Additional observations from a re-analysis of the deposited data

How the results depend on the processing

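The 3011 higher calls became 4850 with no filter, 1555 with a filter of 5 TPM, 6351 with array weights, 5706 without clones 21 and 24, and 6156 without clones 19, 21, 24 and 26. Leaving out 1 clone at a time gave 2573 to 4756 higher calls, the latter without clone 24, and 1131 to 1300.0 lower calls. The 1223 lower calls became 3033 with median-ratio scaling, 2832 with quantile normalization, 2554 with the length trend removed, and 3322 with that and without clones 21 and 24, where 3103 were higher. The 28 higher genes without overlap became 1622 without clones 21 and 24 and 43 after leaving out mitochondrial, Gm and pseudogene entries and rescaling, which also took the 119 lower ones to 60.0. Most named genes were picked for large differences called in the same direction in both fits, so keeping sign and call is in part built in. None of the 76 named genes called over all clones changed sign under an alternative that was run, but 8 lost their call with the length trend removed. Signs turned in 5 uncalled ones: Flt3 with median-ratio scaling (-0.10), quantile normalization (-0.069), the length trend removed (-0.27) and that without clones 21 and 24 (-0.17), Gm14327 with median-ratio scaling (-0.0030), and Chil3 (-0.14), S100a9 (-0.32) and S100a8 (-0.13) with array weights. The cause was not tested. Without clones 21 and 24, removal of the length trend cost 3 named genes their call. Csf3r was not called in either length setting, with differences of 0.50 and 0.36. Over all alternatives, each library left out in turn included, 56 of 3301 outcomes for named genes were lost calls. The length settings were chosen after seeing the data. No paired analysis was possible because the 2 sets of clones share no clone number.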
